A study of Homo sapiens with 8 samples.

Results

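The genes described here were detected strongly in HIEC6 (HIEC-6), given by the study as a normal human intestinal epithelial cell line. These genes were absent or nearly absent from every other library of the series. A gene was a member when the table listed 500 or more raw counts for it in HIEC6 and 10 or fewer in each of the 7 other libraries. Symbols starting with LINC, HOX, PCDH, COL, LOX or HIST, symbols containing -AS, and MMP2 were set aside by name. Of the 54261 genes of the table, 60 were members. Another 5 genes passed the count limits and were set aside by their symbol, namely PCDH9, HOXC13-AS, LINC00473, TP73-AS1 and LINC00472. Together these 65 genes were 0.69% of the 9417 genes with 500 or more counts in HIEC6. Since the counts themselves chose the members, the height of these genes in HIEC6 and their low counts elsewhere are a description, with no test.

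Total RNA depleted of ribosomal RNA was sequenced from 5 untreated cell lines and from 3 of these lines under hypoxia, with 1 library each. Besides HIEC6, NCM460 is labelled as a normal line of the intestinal epithelium. The remaining lines are from CRC (colorectal cancer), namely DLD1, HCT116 and HCT8, each sequenced both untreated and after hypoxia treatment. The oxygen level and the time under hypoxia are not given in the sources used here. The study's methods give DLD1 as mutant for p53 and APC, and HCT8 as wild type for p53 and mutant for APC. All lines were kept in the same medium with serum and carry the same passage label. The labels' extraction note names a brain region, which goes against the cell lines named in every other label. HIEC6 was 1 library of 1 line, so no value below has a replicate check in HIEC6, and a difference between HIEC6 and the other libraries cannot be told apart from a difference between these particular cultures.

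A normal intestinal epithelial cell is known by an adhesion and keratin programme (EPCAM, E-cadherin, claudins, keratins KRT8, KRT18, KRT19 and KRT20) and by transcription factors such as CDX2. The gut wall beneath it holds fibroblasts, smooth muscle, pericytes, glia, neurons and vessels, each with its own markers. Fibroblasts are known by PDGFRA, THY1, DCN, LUM and fibrillar collagen genes, and by mesenchymal transcription factors of the TWIST, PRRX and FOXF kinds. The members were set against lists of such markers to see which of these cell types, if any, they share.

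Total counts lay between 45519306 and 57374239, with 56712943 in HIEC6, so that 1 count corresponded to 0.0174 to 0.022 CPM (counts times 1e6 over the library's total). Taken over genes on the scale of log2(CPM + 1), Pearson's r between HIEC6 and the other libraries was 0.908 to 0.928, and among the other libraries it was 0.924 to 0.994. Genes are not independent replicates, and these values describe the libraries. The library labelled NCM460 correlated with untreated HCT116 at 0.994, as high as untreated DLD1 with DLD1 under hypoxia (0.994). Each of the 7 other libraries correlated with some other library at 0.981 or more. With NCM460 left out of the rule, 72 genes were members, 60 of them those of the full rule.

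The member genes had 515 to 4975 counts in HIEC6 with a median of 1049, which is 9.08 to 87.7 CPM with a median of 18.5 CPM. Of the 60, 29 had under 1000 counts, 31 had 1000 or more and 11 had 2000 or more. Their highest count in any of the 7 other libraries had a median of 5. For 21 members no other library had more than 3 counts, which was taken as the floor of detection and corresponds to 0.0523 to 0.0659 CPM. In 22 members at least 1 other library had 6 to 10 counts. Of the 420 values outside HIEC6, 225 (53.6%) were 0, and 1 member, C9orf47, was at 0 in all 7 libraries with 515 counts in HIEC6. These floors cover counting error only. The plot of counts by gene and library shows the HIEC6 column apart from all others in every role group, as the rule requires.

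**Figure D1:**
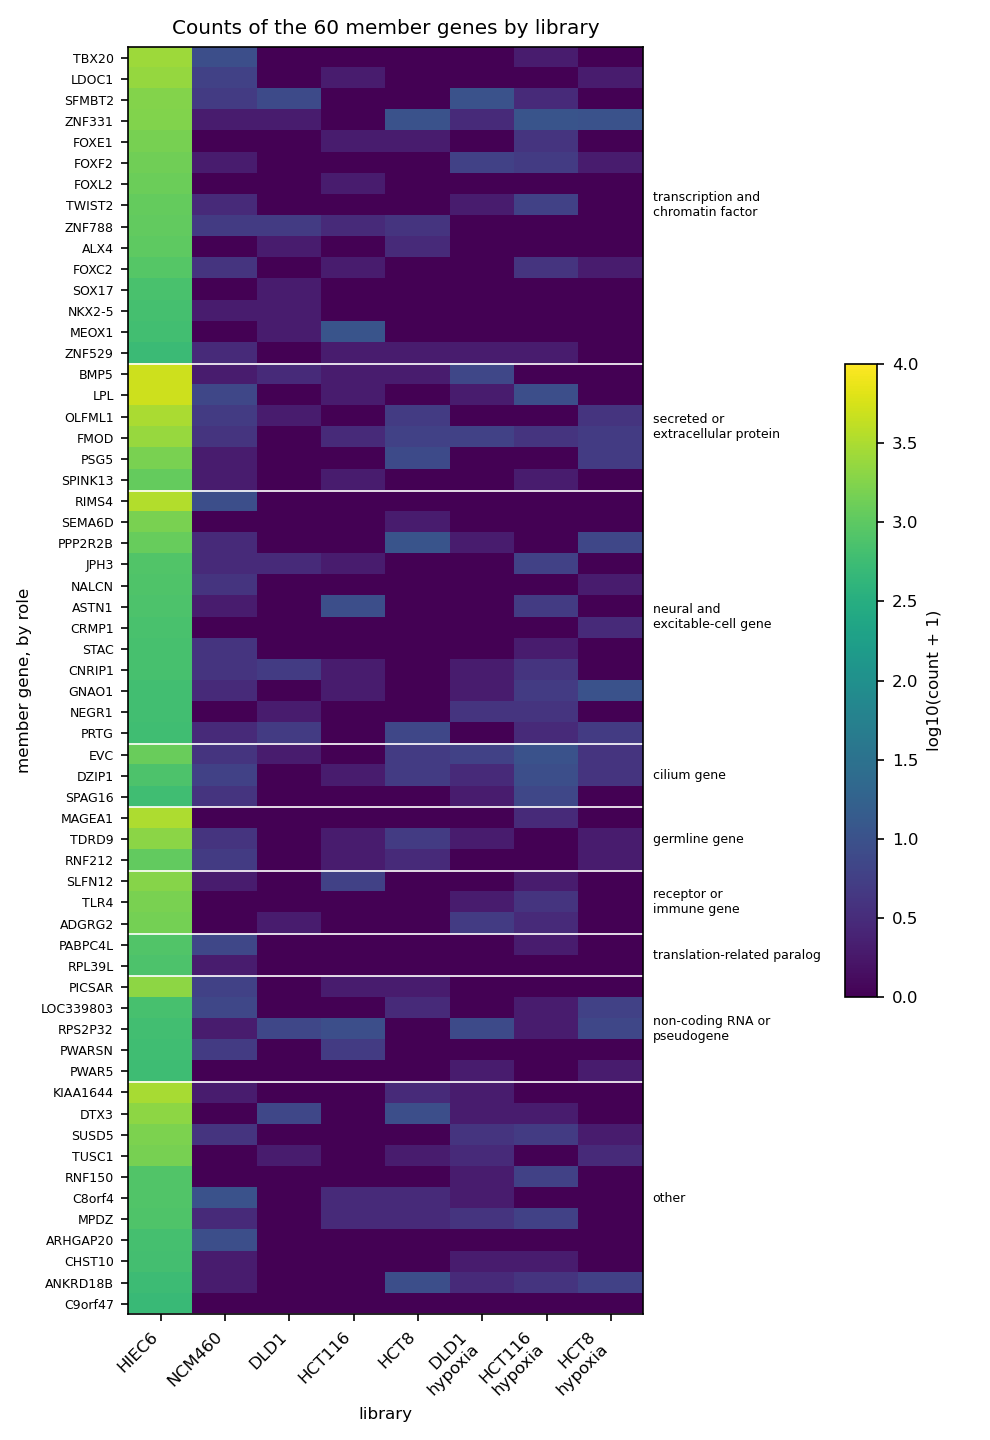
Counts of the 60 members (rows, grouped by role and ordered by HIEC6 count) in the 8 libraries (columns, 1 library each), coloured by log10(count + 1). HIEC6 holds 515 to 4975 counts in each row, and the other libraries hold 0 to 10, by the rule that chose the rows.

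In position, 57 members were matched to GENCODE release 44 on GRCh37, and 53 of these are annotated as protein coding. They are spread over 22 chromosomes, with at most 5 on any of them (chromosomes 4 and 9). By length, taken as counts per kb of annotated exon, the members ran from 40.1 to 2797 in HIEC6 with a median of 233. The highest per kb were the long non-coding RNA PICSAR with 2797, the cancer-testis antigen gene MAGEA1 with 1854, the T-box factor gene TBX20 with 1397, BMP5 with 1253 and LPL with 1194. Next in counts per kb came TUSC1 (1018), SPINK13 (970), OLFML1 (897), FMOD (794), RPL39L (729), RPS2P32 (692), TWIST2 (670), RIMS4 (629), FOXF2 (549) and ZNF788 (549). Grouped by what each gene is known to do, 15 members are transcription or chromatin factors, 12 are best known from neurons or other excitable cells, 6 encode secreted proteins, and 3 each belong to cilia, to the germline and to receptors or immune defence. A further 5 are non-coding RNAs or pseudogenes, 2 are paralogs of genes of the translation machinery and 11 are of other kinds. ZNF788, placed with the transcription factors by its name, is annotated as a transcribed pseudogene. These roles were assigned after the members were known, and to the members only. Whether any role is more common among members than among other genes therefore cannot be told from these numbers.

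The transcription and chromatin factors were the largest role by number, with 15 of the 60 members, and by counts, with 23.3% of those of all members in HIEC6. Their counts in HIEC6 ran from 535 to 2553 with a median of 1132, and none had more than 10 counts elsewhere. They include regulators known from several embryonic tissues. TWIST2 is a basic helix-loop-helix factor of dermis and other mesenchyme, MEOX1 a homeobox factor of the somites, ALX4 one of the face and limbs, and TBX20 and NKX2-5 are factors of the developing heart. Of the forkhead factors, FOXF2 is known from the gut mesenchyme, FOXC2 from paraxial mesoderm and lymphatic vessels, FOXL2 from the ovary and FOXE1 from the thyroid. SOX17 is a factor of endoderm and of vessel endothelium. The group thus covers tissues of more than 1 germ layer.

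TBX20 had 2553 counts in HIEC6, 8 in NCM460, 1 in HCT116 under hypoxia and 0 in the 5 others. TWIST2 had 1132 counts in HIEC6, 2 in NCM460, 0 in DLD1, HCT116 and HCT8, and under hypoxia 1 in DLD1, 5 in HCT116 and 0 in HCT8. FOXF2 had 1346 counts in HIEC6, 1 in NCM460, 0 in each of the 3 CRC lines untreated, and under hypoxia 5 in DLD1, 4 in HCT116 and 1 in HCT8. By the rule, HIEC6 was high for each of these factors, and the other libraries stayed at or near 0. FOXL2 had 1255 counts in HIEC6 and 1 in HCT116, with 0 in the 6 other libraries. FOXE1 had 1509 counts in HIEC6 and at most 3 elsewhere, and FOXC2 had 866 and at most 3. NKX2-5 had 665 counts in HIEC6, 1 in NCM460, 1 in DLD1 and 0 in the 5 others. SOX17 had 702 counts in HIEC6 and 1 in DLD1, with 0 in the rest. The homeobox gene ALX4 had 1018 counts in HIEC6 and at most 2 elsewhere, and MEOX1 had 623 counts in HIEC6 and 10 in HCT116, at the limit of the rule.

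The forkhead family shows how the members stand among their relatives. The table lists 46 FOX genes, of which 20 had 500 or more counts in HIEC6, 10 had 500 or more in every other library, and 4 (FOXC2, FOXE1, FOXF2 and FOXL2) were members. FOXF1, which is also known from the gut mesenchyme, had 765 counts in HIEC6 and 2 to 255 elsewhere. FOXA2 and FOXA3, factors of gut endoderm, had 0 and 2 counts in HIEC6, against up to 448 and up to 696 elsewhere, whereas FOXA1, also of gut endoderm, had 697 counts in HIEC6, against 79 to 104 in NCM460 and the HCT116 libraries and 7635 to 13837 in the DLD1 and HCT8 libraries. FOXQ1 had 1168 counts in HIEC6 against 12472 in DLD1 and 23 in HCT116 under hypoxia, and FOXM1, a factor of dividing cells, had 23507 against 2602 to 10342. HIEC6 thus lay above, within or below the other libraries depending on the FOX gene. Among 561 ZNF genes, 204 had 500 or more counts in HIEC6 and 3 were members, ZNF331 (1748 counts in HIEC6, at most 10 elsewhere), ZNF788 (1094, at most 4) and ZNF529 (535, at most 2). The polycomb-type factor SFMBT2 had 1832 counts in HIEC6 and at most 9 elsewhere, and LDOC1, a gene derived from a retrotransposon, had 2370 and at most 5.

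The stretches before the start of 4 of these factors are shown because CpG dinucleotides are dense in them, and the stretch of BMP5 because it holds nearly none. Each is the 250 bases upstream of the RefSeq gene start in GRCh38.p14, on the strand of the gene, with CpG in capitals; in BMP5 the capitals mark TATAAA, whose first base lies 118 bases before the start. They hold 31 CpG in TBX20 (chr7:35254101-35254350, minus strand), 26 in TWIST2 (chr2:238847835-238848084, plus strand), 25 in FOXL2 (chr3:138947138-138947387, minus strand), 20 in FOXF2 (chr6:1389326-1389575, plus strand) and 1 in BMP5 (chr6:55875591-55875840, minus strand).
TBX20: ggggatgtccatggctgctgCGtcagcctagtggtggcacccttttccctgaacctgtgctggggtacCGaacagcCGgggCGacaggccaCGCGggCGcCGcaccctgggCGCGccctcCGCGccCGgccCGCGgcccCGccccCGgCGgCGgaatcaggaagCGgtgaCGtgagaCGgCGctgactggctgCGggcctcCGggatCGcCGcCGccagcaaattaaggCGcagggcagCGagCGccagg
TWIST2: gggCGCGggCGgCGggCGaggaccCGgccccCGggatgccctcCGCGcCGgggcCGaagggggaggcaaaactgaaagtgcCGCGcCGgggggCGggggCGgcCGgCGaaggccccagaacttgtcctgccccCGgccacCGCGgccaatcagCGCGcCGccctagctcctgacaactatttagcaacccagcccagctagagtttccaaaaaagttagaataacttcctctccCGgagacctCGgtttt
FOXL2: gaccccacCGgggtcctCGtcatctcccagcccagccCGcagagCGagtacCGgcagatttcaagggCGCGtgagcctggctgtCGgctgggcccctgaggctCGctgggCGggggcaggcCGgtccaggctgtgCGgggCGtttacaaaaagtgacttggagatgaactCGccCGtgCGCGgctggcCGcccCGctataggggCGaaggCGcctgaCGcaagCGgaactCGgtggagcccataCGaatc
FOXF2: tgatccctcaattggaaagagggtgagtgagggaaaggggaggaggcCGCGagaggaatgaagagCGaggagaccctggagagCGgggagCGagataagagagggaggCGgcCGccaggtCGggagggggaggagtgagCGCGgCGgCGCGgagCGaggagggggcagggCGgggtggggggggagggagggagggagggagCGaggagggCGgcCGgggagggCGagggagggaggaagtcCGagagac
BMP5: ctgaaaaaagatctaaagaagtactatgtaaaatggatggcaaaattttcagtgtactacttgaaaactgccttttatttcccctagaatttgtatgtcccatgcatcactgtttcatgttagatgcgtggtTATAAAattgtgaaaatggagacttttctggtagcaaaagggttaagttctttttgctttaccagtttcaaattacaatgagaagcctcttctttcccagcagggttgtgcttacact

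In windows of 300 bases (250 before and 50 after the start of the canonical GENCODE transcript, GRCh37), 57 of the 60 members (95%) could be read. A window counted as CpG-rich where its GC content was above 50% and its CpG count above 0.6 of the number its C and G content gives. By that measure 39 of 57 members (68.4%) were CpG-rich, against 89.2% of 9175 other genes with 500 or more counts in HIEC6, 46.2% of all 30665 genes with a window and 13.7% of 12822 genes with 10 or fewer counts in all 8 libraries. The median number of CpG was 23 in the members, 29 in the other genes with 500 or more counts in HIEC6 and 13 in all genes. Of the 10 developmental factors named above, 9 were CpG-rich, with 3 (MEOX1) to 38 (TBX20) CpG in the window. The members ranged from 1 CpG in BMP5 and in PSG5 to 58 in JPH3, a junctophilin of excitable cells. Among motifs searched on both strands, TATAAA was found in 5 member windows (8.77%), against 4.82% of the other genes with 500 or more counts in HIEC6 and 14% of all windows. In the same order, the TEAD motif GGAATG was in 8 member windows (14%, 9.73% and 12.1%), the E-box CACCTG in 8 (14%, 16.5% and 21.4%) and the E-box CAGCTG in 8 (14%, 15.4% and 16.9%). TGANTCA of AP-1 was in 3 member windows (5.26%, 3.47% and 6.47%) and the CArG box in 0 (0%, 1.05% and 1.22%). These shares are a description, with no test.

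**Figure D2:**
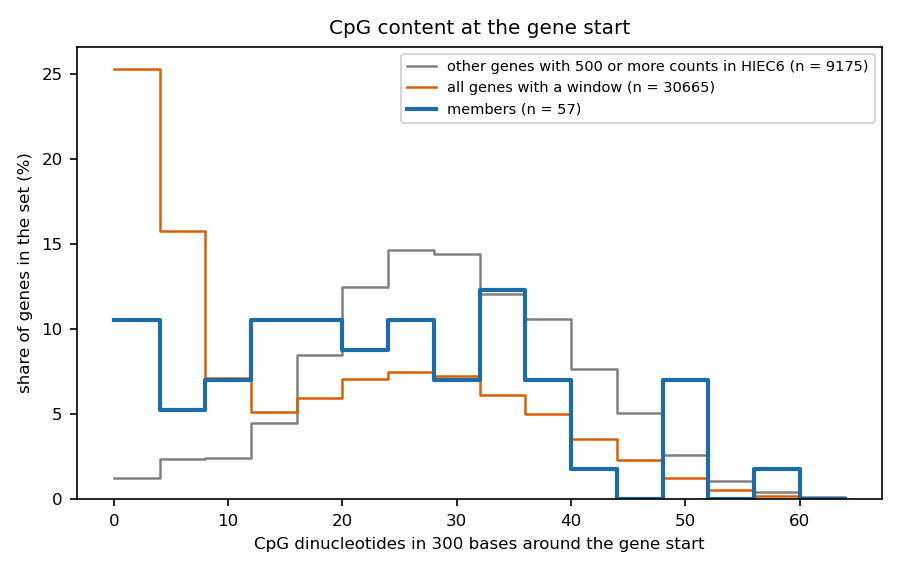
Share of genes (vertical axis, % of each set) by the number of CpG in the 300 bases around the gene start (horizontal axis, bins of 4), for the 57 members with a window, for 9175 other genes with 500 or more counts in HIEC6 and for all 30665 genes with a window. The members spread over the whole range, with a median of 23, between the medians of all genes (13) and of the other genes with 500 or more counts in HIEC6 (29).

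The 6 secreted proteins held 21.9% of the member counts. BMP5, a bone morphogenetic protein, had 4975 counts in HIEC6, 1 in NCM460, 2 in DLD1, 1 in HCT116 and 1 in HCT8, and under hypoxia 6 in DLD1 and 0 in HCT116 and HCT8. LPL, the lipoprotein lipase that frees fatty acids from triglycerides in the blood, had 4934 counts in HIEC6, 6 in NCM460, 1 in HCT116, 0 in DLD1 and HCT8, and under hypoxia 1 in DLD1, 8 in HCT116 and 0 in HCT8. By the rule, no other library came near HIEC6 for either gene. OLFML1, an olfactomedin-like protein, had 3081 counts in HIEC6 and at most 4 elsewhere. FMOD (fibromodulin), a small leucine-rich proteoglycan that binds collagen fibrils, had 2410 and 0 to 5 elsewhere. PSG5, a pregnancy-specific glycoprotein best known from the placenta, had 1550 counts in HIEC6, 7 in HCT8, 4 in HCT8 under hypoxia, 1 in NCM460 and 0 in the rest. SPINK13, a Kazal-type protease inhibitor, had 1140 and at most 1. Another bone morphogenetic protein gene, BMP4, had 423 counts in HIEC6 against 2933 to 43776 elsewhere. Of the adipocyte list, ADIPOQ and LEP were at 0, FABP4 at 6 and PLIN1 at 8 counts in HIEC6, while PPARG had 3853 against 570 to 5684.

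The 12 genes known from neurons and other excitable cells held 15.1% of the member counts, with 587 to 3403 counts in HIEC6. RIMS4, of the synaptic RIM family, had 3403 counts in HIEC6, 8 in NCM460 and 0 in the 6 others. SEMA6D, a semaphorin that guides axons, had 1584 counts and 1 in HCT8, with 0 in the 6 others. CRMP1, a collapsin response mediator, had 710 counts in HIEC6 and 2 in HCT8 under hypoxia, and the sodium leak channel gene NALCN had 791 and at most 3. PPP2R2B, a regulatory subunit of protein phosphatase 2A, had 1179 in HIEC6 and 10 in HCT8. The rest of this group were JPH3 (808), ASTN1 (775), STAC (696), CNRIP1 (673), GNAO1 (620), NEGR1 (619) and PRTG (587), with at most 9 counts elsewhere. Of the 14 genes of the neuron list, 10 had 3 or fewer counts in HIEC6, and 8 of these were at 0, among them ELAVL3, ELAVL4, STMN2, NEFL, CHAT and VIP. TUBB3, a neuronal tubulin gene of that list, had 1292 counts in HIEC6 and 318 to 7762 elsewhere. SNAP25 had 51 counts in HIEC6 and 0 to 13 elsewhere, and SYT1 had 81 in HIEC6 against up to 8828 elsewhere.

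Of the 3 germline members, MAGEA1 had 3173 counts in HIEC6, 2 in HCT116 under hypoxia and 0 in the 6 other libraries. Its relative MAGEA3 went the other way, with 35 counts in HIEC6 against 3513 in NCM460, 3386 in HCT116 and 2023 in HCT116 under hypoxia, and 1 in each DLD1 and HCT8 library. TDRD9, a helicase that silences transposons in the male germline, had 1991 counts in HIEC6 and at most 4 elsewhere, and RNF212, a factor of meiotic crossing over, had 1080 and at most 4. The cilium genes were EVC (1228 counts in HIEC6), DZIP1 (775) and SPAG16 (582). Of the receptors and immune genes, TLR4, the receptor for bacterial lipopolysaccharide, had 1582 counts in HIEC6, 3 in HCT116 under hypoxia, 1 in DLD1 under hypoxia and 0 in the 5 others. SLFN12 had 1900 and at most 5, and its neighbour in the family SLFN11 was no member, with 2443 counts in HIEC6 and up to 14 elsewhere. The adhesion receptor gene ADGRG2, known from the epididymis, had 1474 and at most 4.

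Among the non-coding members, PICSAR had 2053 counts in HIEC6, 5 in NCM460 and at most 1 in the others. PWAR5 (566) and PWARSN (591) come from the imprinted Prader-Willi region of chromosome 15. From the same region SNORD116 had 8476 counts in HIEC6 and at most 25 elsewhere, and IPW had 367 and at most 4, so neither met the limits. LOC339803 had 692 counts and RPS2P32, a processed pseudogene, 617. RPL39L, a testis-expressed copy of a ribosomal protein gene, had 753 counts in HIEC6, 1 in NCM460 and 0 in the 6 others, and PABPC4L had 810 and at most 6. Of the other members, KIAA1644 had 2973 counts in HIEC6 and at most 2 elsewhere, DTX3 2114 and at most 8, SUSD5 1650 and at most 4, and TUSC1 1502 and at most 2. The remaining 7 of that group were RNF150 (812), C8orf4 (805), MPDZ (790), ARHGAP20 (661), CHST10 (629), ANKRD18B (560) and C9orf47 (515).

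Reads of some members could also come from other genes. EVC and CRMP1, both members, overlap by 66222 bases on chromosome 4 on opposite strands (EVC at chr4:5712928-5816032, plus, and CRMP1 at chr4:5749811-5894813, minus, GRCh37), and 31 members overlap another annotated gene. Whether strand was used in the counting is not stated in the sources used here, so reads of such pairs cannot be told apart. PSG5, MAGEA1, RPL39L and RPS2P32 have near copies elsewhere in the genome. PSG4, a close relative of PSG5, had 2533 counts in HIEC6 and 71 in HCT8 under hypoxia. RPS2, the source of RPS2P32, had 50413 counts in HIEC6 and 80471 to 191566 elsewhere. RefSeq gives C9orf47 as a synonym of S1PR3, which has a row of its own with 3740 counts in HIEC6 and at most 11 elsewhere.

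Few members were on a list of cell type markers, and the members were 0.111% of the genes of the table. Of 14 lists of cell type markers (fibroblast, the fibroblast genes set aside by symbol, smooth muscle, pericyte, enteric glia, neuron, endothelium, leukocyte, mesothelium, interstitial cell of Cajal, striated muscle, cartilage and bone, adipocyte and intestinal epithelium), only the fibroblast list held a member, and it held 1 of 36, TWIST2. The limit of 10 counts elsewhere kept abundant genes of that list such as FBN1, FBLN1 and MFAP5 from being members. On the list of 55 mesenchymal transcription factors there were 7 members (TWIST2, MEOX1, FOXC2, FOXF2, FOXL2, NKX2-5 and ALX4). The lists were chosen with earlier results of these data known, so this count describes the list and cannot be weighed against the share of all genes. FMOD was the 1 member on the list of matrix proteins and BMP5 the 1 member on the list of growth factor signals and receptors. In all 9 of 60 members were on any of the 22 lists.

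Whole lists were then compared between HIEC6 and the other libraries, without a test. A gene was counted as higher where its CPM in HIEC6 was at least 4 times the highest of the 7 other libraries (with 3 counts as the floor), and as lower where it was at most 1/4 of the lowest. Of 24265 genes with at least 10 counts in some library, 732 (3.02%) were higher and 990 (4.08%) lower. Of the fibroblast list, 7 of 28 genes with such counts were higher (25%) and 1 lower. The 7 were the microfibril genes FBN1 and MFAP5, the fibulins FBLN1 and FBLN5, the protease ADAM12, the collagen receptor DDR2 and the member TWIST2. FBN1 had 54905 counts in HIEC6 and 62 to 468 elsewhere, and MFAP5 had 15003 and 0 to 13. FBLN1 had 41012 counts in HIEC6, against 12 to 116 in the DLD1 and HCT8 libraries and 1761 to 2318 in NCM460 and the HCT116 libraries.

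The genes of the fibroblast list were split in HIEC6 between high counts and counts at or near 0. In HIEC6, 16 of the 36 fibroblast genes had 3 or fewer counts and 10 had none. PDGFRA had 2 counts in HIEC6 and 0 to 27 elsewhere, THY1 had 2, DCN 4, FAP 1, POSTN 1 and LUM 19, and DPT, OGN, PDPN and GREM1 had 0. Of the genes the rule sets aside by symbol, the collagen COL5A1 had 41022 counts in HIEC6 against 20 to 164 elsewhere, while COL1A2 had 26, COL3A1 66, COL6A3 5 and MMP2 0 counts in HIEC6. COL1A1 had 2608 in HIEC6 and 106 to 1839 elsewhere. On the fibroblast list ANTXR1 had 16059 counts in HIEC6 and 4 to 5806 elsewhere, FN1 (fibronectin) had 6616 and 14 to 5131, and PDGFRB, the other PDGF receptor, had 488 and 10 to 385, each above all other libraries in count by less than 4-fold. VCAN, the proteoglycan versican, was the 1 lower gene with 7 counts in HIEC6 against 30 to 13840. The summed level of the fibroblast list was 2501 CPM in HIEC6 and 11.1 to 490 CPM in the other libraries, most of it from FBN1 (968 CPM) and FBLN1 (723 CPM).

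The intestinal epithelium list was mostly low, with 15 of 27 genes lower in HIEC6 (55.6%, against 4.08% of all genes) and 0 higher. The adhesion protein gene EPCAM had 10 counts in HIEC6 and 10969 to 33357 elsewhere, CDH1 (E-cadherin) had 172 against 6602 to 66073, and the homeobox gene CDX2 had 3 against 534 to 18275. KRT19 had 56 counts in HIEC6 against 37777 to 114950. The splicing factor genes ESRP1 and ESRP2, the claudins CLDN3, CLDN4 and CLDN7, GRHL2, ST14, SPINT1, RAB25, TJP3 and MARVELD2 were also lower. The keratin genes KRT8 and KRT18 stayed within the range of the other libraries. KRT8 had 243272 counts in HIEC6 and 90733 to 300346 elsewhere, and KRT18 had 211257 against 71573 to 250120, so the simple-epithelial keratin pair was as abundant in HIEC6 as in the CRC lines. ELF3, an epithelial factor, had 3678 counts in HIEC6 and 3394 to 25760 elsewhere. In CPM it lay just below all other libraries (64.9 against 65 to 465). Of the markers of the labelled cell type, HIEC6 thus had KRT8 and KRT18 at high counts and EPCAM, CDH1, CDX2 and KRT19 below all other libraries. KRT20 (0 counts) and VIL1 (4 counts) were near 0 in HIEC6, and also in the NCM460 and untreated HCT116 libraries. As keratins of simple epithelia, KRT8 and KRT18 alone do not settle the labelled cell type.

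**Figure D3:**
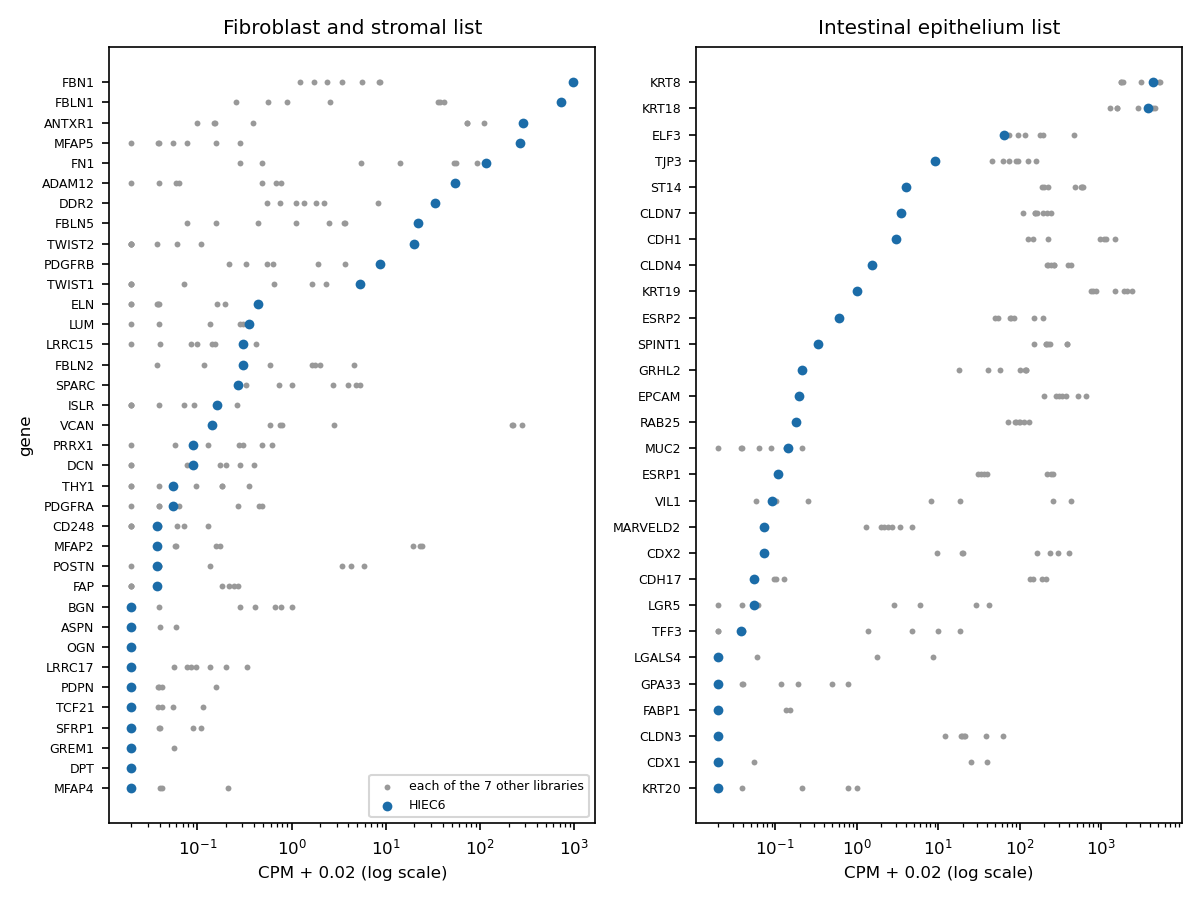
CPM + 0.02 (log scale, horizontal) of each gene of the fibroblast list (left) and of the intestinal epithelium list (right) in HIEC6 (blue) and in each of the 7 other libraries (grey). FBN1, FBLN1 and MFAP5 lie far to the right in HIEC6 while PDGFRA, THY1 and DCN lie near 0, and most epithelial genes lie to the left of all other libraries while KRT8 and KRT18 do not.

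The other cell type lists are short, and those named next had 1 gene higher in HIEC6, against 3.02% of all genes. It was MYOCD in the smooth muscle list (1 of 12, 8.33%, with 25 counts in HIEC6 and 0 elsewhere) and MCAM in the pericyte list (1 of 6, 16.7%, 23193 against 37 to 2256). In the endothelium list it was CDH5 (1 of 9, 11.1%, 306 against 0 to 10) and in the mesothelium list PRG4 (1 of 7, 14.3%, 122 against 0 to 1). In the striated muscle list it was ACTC1 (1 of 3, 33.3%, 77 against 0 to 4) and in the list of fibroblast genes set aside by symbol COL5A1 (1 of 11, 9.09%). No gene of the neuron, leukocyte, Cajal cell, cartilage and bone or adipocyte list was higher. Some of the lists also had 1 gene lower in HIEC6, against 4.08% of all genes. In the pericyte list it was NOTCH3 (1 of 6, 16.7%, 130 counts against 614 to 17334). In the endothelium list it was ESAM (1 of 9, 11.1%) and in the mesothelium list LRRN4 (1 of 7, 14.3%). In the leukocyte list it was LCP1 (1 of 8, 12.5%) and in the cartilage and bone list RUNX2 (1 of 4, 25%). Each of these lists held genes at 0 counts in HIEC6, and several also held abundant genes. Among smooth muscle genes, MYH11 and CNN1 were at 0, while ACTA2 had 307 counts in HIEC6 (114 to 492 elsewhere), TPM2 7505 (44 to 13546) and CALD1 11554 (251 to 5281). Of the pericyte list CSPG4 had 7411 counts in HIEC6 and 3 to 3513 elsewhere, and KCNJ8, ABCC9 and HIGD1B were at 0. Among endothelial genes KDR and CLDN5 were at 0 and EGFL7 had 2359 (250 to 4081), and among leukocyte genes CD3E and CD53 were at 0 and CD68 had 919 (60 to 1142). Of the mesothelium list WT1 and CALB2 were at 0 and MSLN had 6728 (124 to 14063), and of the Cajal cell list KIT was at 0 and ETV1 had 432 (20 to 1092). S100B and GFAP of glia and MYOD1 of striated muscle were at 0. In the bulk libraries fewer cells of a type and less RNA per cell cannot be told apart.

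By function, 11 of 42 mesenchymal transcription factors were higher in HIEC6 (26.2%, against 3.02% of all genes) and 2 lower, OSR1 and RUNX2. Of those higher, the 7 members named above pass the 4-fold limit by the rule that chose them, so the share of 26.2% was partly set in advance. The rest were ZEB2 (746 counts in HIEC6 and 1 to 25 elsewhere), a repressor of epithelial genes, and SIX2 (2620), TBX2 (481) and LHX9 (135). PRRX1 had 4 counts, TCF21, HAND1, HAND2 and GATA4 had 0, and TWIST1 had 301 counts in HIEC6 against 0 to 119. Of the matrix list 11 of 43 were higher (25.6%), among them FMOD, FBN2 (54736 counts in HIEC6 against 3 to 52 elsewhere), EFEMP1 (16915) and SMOC1 (13933), and 3 lower. Of the growth factor list 8 of 39 were higher (20.5%), BMP5, WISP2, IGFBP7, FGF2, PDGFD, NRG1, VEGFC and PTGFR. In the same list 3 genes were lower, IGF2, BMP4 and PTGS2. The protease list had 6 of 24 higher (25%) and 2 lower, the adhesion and axon guidance list 7 of 37 higher (18.9%) and 5 lower, and the cytokine list 3 of 17 higher (17.6%) and 2 lower. The Wnt list had 2 of 18 higher (11.1%, WNT5A and RSPO3) and 1 lower (TCF7L1), and the imprinted list 1 of 10 higher (10.0%, PEG10) and 2 lower (20%, IGF2 and KCNQ1OT1). These lists share genes and were chosen with earlier results of these data known. The members counted in them were chosen on the same values, so the shares are a description.

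The limit of 10 counts also set which HIEC6 genes could be members. Just inside the lower limit in HIEC6 lay C9orf47 (515), ZNF529 (535) and ANKRD18B (560), and just outside it SLITRK5 (486), LOC285696 (479) and KRBA1 (477). With 10 counts elsewhere, MEOX1, PPP2R2B and ZNF331 lay just inside, and KANK4 (5572 counts in HIEC6), S1PR3 (3740), NPR1 (1860), RAB42 (1109) and PPARGC1A (796), each with 11 elsewhere, just outside. Where the highest other library was instead allowed 2% of the CPM in HIEC6, a form of the rule chosen after seeing the data, 116 genes passed, the 60 members and 56 more. The 56 had a median of 5504 counts in HIEC6, and 29 of them had more than 5000, which none of the 60 members (0) reached. They include KRT7 (237908 counts in HIEC6, at most 2251 elsewhere), a keratin of ductal and other simple epithelia, VIM (69375, at most 1142), the intermediate filament of mesenchymal cells, and FBN1, FBN2, MFAP5 and ADAM12. On this wider set 4 genes were on the fibroblast list and 8 on the mesenchymal transcription factor list, and 0 were on the intestinal epithelium list. KRT7 and VIM, named here after their values were seen, stood side by side in 1 library.

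**Figure D4:**
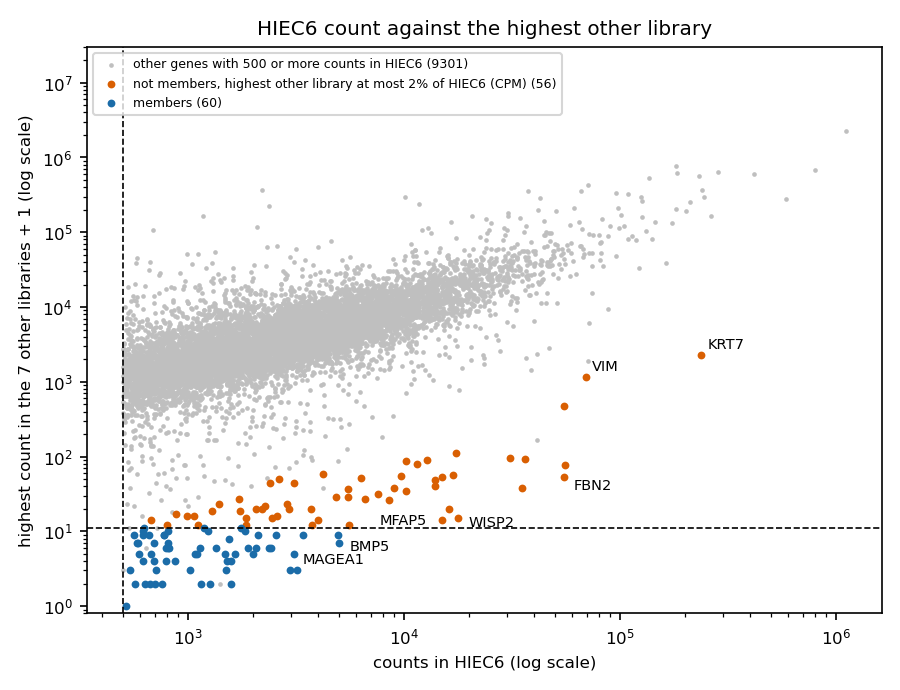
Counts in HIEC6 (horizontal) against the highest count in the 7 other libraries plus 1 (vertical), both on log scales, for the genes with 500 or more counts in HIEC6. Dashed lines mark 500 counts in HIEC6 and 10 counts elsewhere. The 60 members (blue) stop below 5000 counts, the 56 genes at or under 2% of the CPM in HIEC6 (orange) lie above the 10-count line and reach 237908 (KRT7), and the few grey points below that line are the genes set aside by symbol.

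Outside HIEC6 the members were near the floor in every library, at different sums. All 60 together had 140 counts in NCM460, 45 in DLD1, 58 in HCT116 and 90 in HCT8, and under hypoxia 73 in DLD1, 116 in HCT116 and 73 in HCT8, against 82661 in HIEC6. That was 0.0603% (DLD1) to 0.195% (NCM460) of the summed CPM in HIEC6. As CPM with exact Clopper-Pearson 95% intervals, which cover counting error only, the sum was 2.85 (2.39 to 3.36) in NCM460 and 1.11 (0.843 to 1.44) in HCT116. The sum was 0.879 (0.641 to 1.18) in DLD1 and 1.27 (0.997 to 1.6) in DLD1 under hypoxia, 2.09 (1.73 to 2.51) in HCT116 under hypoxia, and 1.71 (1.37 to 2.1) in HCT8 and 1.6 (1.26 to 2.02) in HCT8 under hypoxia. These sums describe single libraries whose low counts the rule had chosen. The intervals in this paragraph do not allow for that choice. No libraries were compared by them, neither NCM460 with HCT116 nor untreated with hypoxia libraries. Among the members, the highest counts in NCM460 were those of C8orf4 (9 counts), RIMS4, TBX20 and ARHGAP20 (8 each). The member sum was 0.146% of all counts of the HIEC6 library (Clopper-Pearson 95% interval 0.145 to 0.147%). NCM460 and HIEC6 share a run label, as do HIEC6 and the untreated DLD1, HCT116 and HCT8 libraries; the part of runs in these few counts was not tested.

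**Figure D5:**
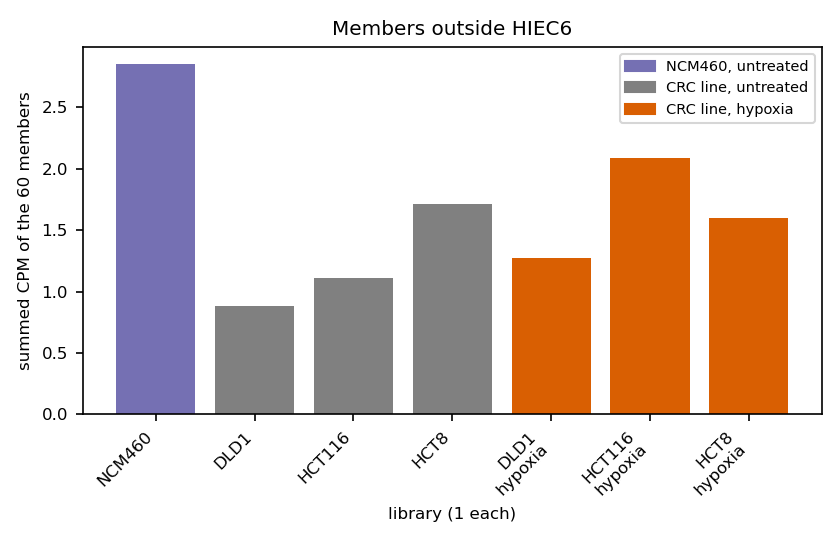
Summed CPM of the 60 members (vertical) in each of the 7 other libraries (1 library per bar), coloured by line type and treatment. NCM460 is highest at 2.85 and untreated DLD1 lowest at 0.879, against 1458 in HIEC6, which is not drawn.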

How the data were processed

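The authors removed ribosomal RNA from total RNA, sequenced it on an Illumina instrument and deposited raw counts per gene symbol, with 54261 rows and 8 libraries. All columns were used. The study's methods name GRCh37.p13, whereas the submitters' processing notes name HISAT2 2.0.4 and GRCh38; the counter, its strand setting and the treatment of reads with several matches are not given in the sources used here. The table holds no coordinates. Positions were taken from the GRCh37 lift of GENCODE release 44 (33786 rows matched by their symbol, 1502 by a former one), and printed promoters from RefSeq on GRCh38.p14, which held 36 of the 60 members.

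Members were found by the count limits of the report, in Python 3.11.15 with pandas 2.3.3 and numpy 2.4.6. The search was run on simulated counts with genes planted inside these limits, which checks the code only and not the members. CPM were counts over library totals; TMM factors (edgeR 4.0.16 in R 4.3.3) and other limits served as alternatives, given in the closing section. Intervals used SciPy 1.17.1 and figures matplotlib 3.10.9. Members, marker lists and limits were chosen with earlier results of these data known. The text names members on a list, the 15 members with the highest count per kb, genes nearest the limits, FOX and ZNF members and the intestinal epithelium list, and other members by their role; further list genes and genes of the 2% rule were named after their values were seen. No test was run, since HIEC6 is 1 library and the rule used the contrast. Near 10 counts the counting error of a gene is a large part of its value. Some items of the study and of the marker lists are not reported here.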

Additional observations from a re-analysis of the deposited data

How the results depend on the processing

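The number of members was 60 and within 1.5 times of it under most limits tried. It fell to 31 with at least 1000 counts asked of HIEC6 and to 38 with at most 5 counts elsewhere, and rose to 116 with the 2% limit, chosen after seeing the data. Limits in CPM gave 55 genes and in TMM-scaled CPM 58, all of them among the 60. With each of the 7 other libraries left out in turn the number was 60 to 72, the highest without NCM460. HIEC6 itself could not be left out. The number of members on the fibroblast list was 1, 2 with at most 20 counts elsewhere (TWIST2 and MFAP5) and 4 with the 2% limit, and 1 to 2 with a library left out (2 without NCM460, which again added MFAP5). The fibroblast genes higher in HIEC6 numbered 7, and 5 to 10 under the alternatives of fold, scaling, filter and libraries; the epithelial genes lower in HIEC6 numbered 15, and 14 to 15. No paired analysis was possible because the results come from no test and HIEC6 is 1 library. Depth limits the 7 other libraries, where 3 counts or fewer do not tell absence from a low level.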

Other observations

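Among the 56 genes that passed the 2% limit without being members, named here after their values were seen, the most abundant were KRT7 and VIM, described above. The iodothyronine deiodinase gene DIO2, which activates thyroid hormone, had 55428 counts in HIEC6 and at most 76 elsewhere. The somatostatin receptor gene SSTR1 had 10160 and at most 34, GLP2R, the receptor for the gut hormone GLP-2, had 5487 and at most 28, and the natriuretic peptide receptor gene NPR1 had 1860 and at most 11. MYPN, a sarcomere protein gene, had 35144 counts in HIEC6 and at most 37 elsewhere. In the striated muscle list ACTC1 was higher in HIEC6, with 77 counts against 0 to 4. MYOD1, MYF5 and PAX7 of that list were at 0 in HIEC6 and at 0 or 1 in every other library, so they do not set HIEC6 apart. SRGN, a proteoglycan gene best known from blood and vessel cells, had 30784 and at most 95, and IL7R, a cytokine receptor gene best known from lymphocytes, had 6616 and at most 26, while of the leukocyte markers CD3E and HLA-DRA were at 0, PTPRC at 6 and CD68 at 919 counts in HIEC6. KRT17, a keratin of basal cells, had 14958 counts in HIEC6 and at most 53 elsewhere. The inhibin gene INHA had 875 and at most 16. These are values with no test, from 1 library.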
